A study of Mus musculus with 24 samples.

Results

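The lungs of *Scnn1b*-Tg mice at postnatal day (PND) 42 were compared with those of *Scnn1b*-Tg mice at PND 10. The arrays were chosen by their titles, 3 at each age, and they are 6 of the 24 whole-lung arrays of the series, which also holds PND 0, PND 3 and wild-type (WT) lungs. *Scnn1b*-Tg mice overexpress the β subunit of the epithelial sodium channel from a transgene driven by the club cell promoter *Scgb1a1*, which directs it to the club cells of the airways. Mice of both ages carried the transgene, and their WT littermates did not. All were C57BL/6N males, the left lobe was taken at a fixed hour, and the arrays of a group are separate RNA samples. The methods describe each sample as RNA pooled from 3 mice, whereas the labels list 2 animals for each array and 1 for *Scnn1b*-Tg PND 42 replicate 3; the samples are called pools here, with that limit. The 6 WT arrays of the same ages were used to ask how much of the change between the ages also occurs without the transgene.

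The epithelial sodium channel takes sodium, and with it water, from the film of liquid that covers the airway surface. Overexpression of its β subunit dehydrates that film, so that mucus is cleared slowly and collects in the airways. The interval studied also covers normal maturation. In mice the alveolar walls are laid down by growing septa in the first weeks after birth, with proliferating fibroblasts that deposit elastin, and the lung then stops most of its cell division while detoxifying enzymes and immune cells of the adult lung accumulate.

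Gene levels are log2 values from RMA, so that a difference of 1 is a 2-fold change, and levels of different genes cannot be set against each other. A gene was called where limma gave a change of at least 2-fold with a p, after Benjamini-Hochberg adjustment, no greater than 0.05. Changes are given as the limma estimate with its standard error (SE), with n = 3 pools at each age. The SEs and p-values rest on 1 spread per probe set, pooled over the 8 groups of all 24 arrays and moderated by limma. They measure only the spread between pools within groups. The median SD was 0.133 at PND 10 and 0.188 at PND 42, so the SE can be too small for genes that vary most at PND 42. In RNA from whole lobes, fewer cells of a type and less RNA per cell cannot be told apart.

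The lung markers *Sftpc*, which encodes surfactant protein C, and *Scgb1a1*, the club cell secretory protein, were bright on all 6 arrays, at 12.39 to 14.04 and at 12.19 to 13.96. *Scnn1b* lay at 9.70, 9.62 and 10.01 at PND 10 and at 10.28, 10.37 and 10.51 at PND 42, above the WT range of 6.37 to 7.75 on every array, and its change of 0.61 (SE 0.26, adjusted p = 0.0848) was not called. The arrays of an age correlated at 0.987 to 0.991 at PND 10 and at 0.963 to 0.982 at PND 42, and 51 genes had a standard deviation (SD) over 1 at PND 42, against 33 at PND 10. Some PND 10 pools stood apart in genes known from other tissues. *Krt13*, a keratin of squamous epithelium, stood at 7.58 in replicate 1 against 3.58 and 3.68 in the other pools of that age, and *Acta1*, skeletal muscle actin, at 9.18 and 8.34 in replicates 1 and 2 against 5.81 in replicate 3. *Alb*, a liver transcript, was highest in replicate 2 (7.86, against 6.21 and 4.60). These genes were picked after their values had been seen, and the source of their RNA was not tested. With only replicate 3 kept at PND 10, 930 of the 1127 probe sets called below were called again.

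**Figure D1:**
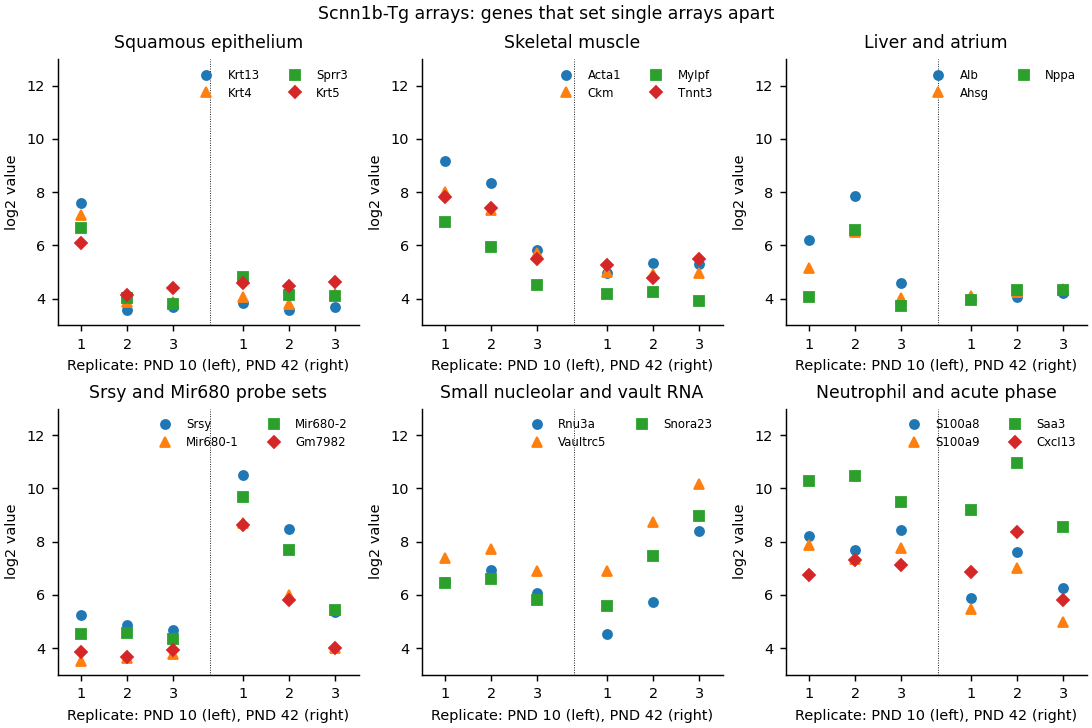
Log2 values of genes that set single *Scnn1b*-Tg arrays apart, 1 point per array, with the 3 PND 10 arrays on the left of each panel and the 3 PND 42 arrays on the right. The keratins shown stand out in PND 10 replicate 1 (*Krt13* 7.58), muscle genes in PND 10 replicates 1 and 2 (*Acta1* 9.18 and 8.34), and *Srsy* spans 5.34 to 10.49 among the PND 42 arrays. *Krt14*, a keratin of the same list that is not shown, was at 5.36, 5.14 and 5.48 at PND 10.

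From PND 10 to PND 42, 1127 of 21789 probe sets (5.17%) were called, 391 higher (1.79%) and 736 lower (3.38%). Counted as 1 probe set per gene, 993 of 19938 genes (4.98%) were called, and 331 of 19938 genes (1.66%) rose and 662 (3.32%) fell. The predominance of lower calls depended on scaling and on the probe sets tested: the lower share was 65.3% as deposited, 43.5% over all probe sets with the scaling unchanged (1205 higher, 926 lower), 72.9% with array medians subtracted and 48.3% with quantile normalization repeated (563 higher, 525 lower). Among the probe sets annotated with exactly 1 gene, the only ones ranked here, the largest rises were those of *Lrat*, an enzyme that stores retinol as ester, of the clock repressor *Nr1d1* and of the complement gene *C4b*. The largest falls in that set were those of *Mest*, an imprinted gene of growing tissues, of the fatty acid transporter *Slc27a6* and of *Egfem1*. *Lrat* lay at 4.07, 4.12 and 3.88 at PND 10 and at 7.76, 8.16 and 7.60 at PND 42 (14.1-fold). *Mest* went from 9.63, 9.79 and 10.27 to 6.25, 6.25 and 5.72, a 14.2-fold fall. Both shifts far exceeded the spread between pools, with an adjusted p of 8.09e-12 for each gene.

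**Figure D2:**
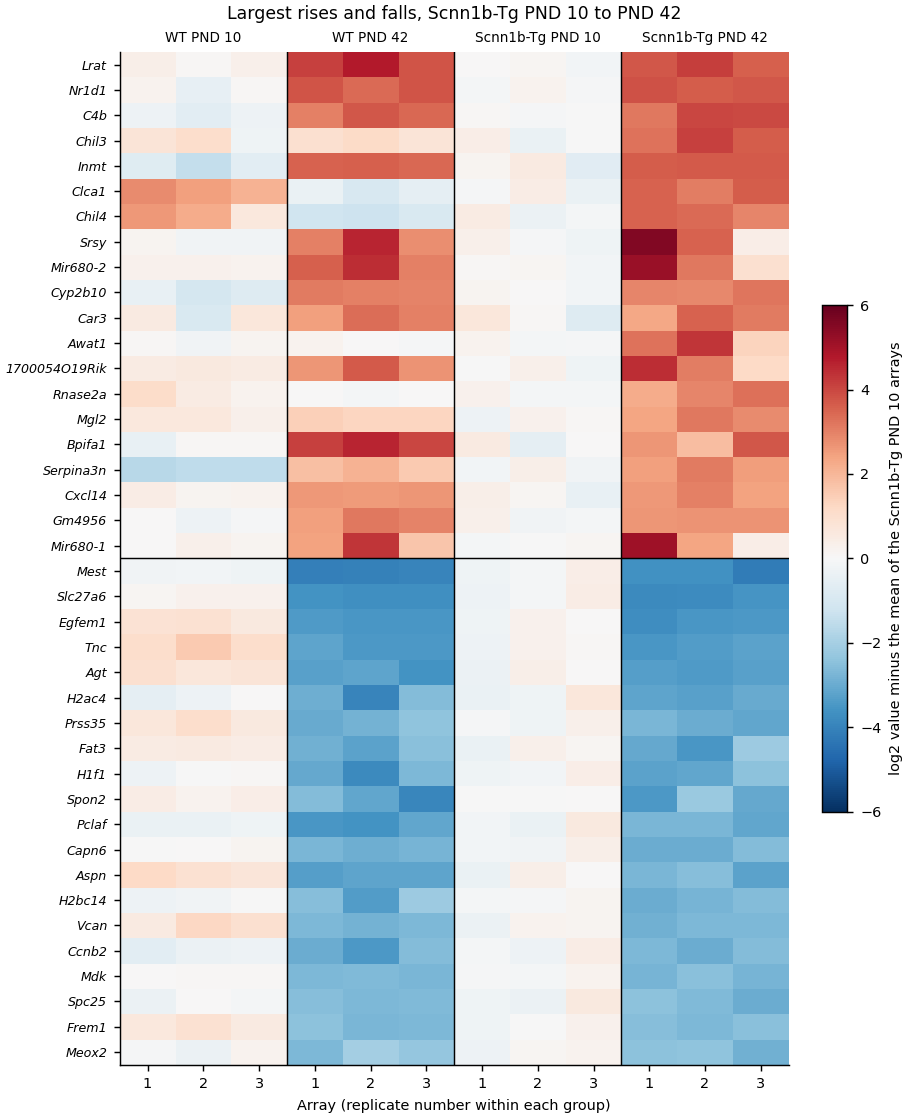
The 20 largest rises and the 20 largest falls in *Scnn1b*-Tg lungs among called genes whose arrays of the 2 ages did not overlap; each cell is 1 array, coloured by its log2 value minus the mean of the *Scnn1b*-Tg PND 10 arrays. *Mest*, *Tnc* and *Lrat* moved the same way in both genotypes, *Clca1* and *Chil4* went opposite ways in WT and *Scnn1b*-Tg, and *Srsy* and the *Mir680* rows vary between PND 42 pools.

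The genes of dividing cells fell together. Of 34 mitosis genes, 31 fell and 0 rose, with a median change of -1.85, against a median of -0.02 over all genes. *Ccnb2*, a cyclin that drives entry into mitosis, was at 7.80, 7.62 and 8.39 at PND 10 and at 5.25, 4.95 and 5.34 at PND 42 and thus fell by 2.75 (SE 0.31, adjusted p = 1.47e-06). *Cdk1*, its kinase partner, was at 7.61, 7.55 and 8.03 and then at 5.07, 5.38 and 5.41. The lowest PND 10 pool of either gene was above the highest PND 42 pool. *Spc25*, which helps to join chromosomes to the spindle, fell by 2.68 (SE 0.29), its partner *Nuf2* fell by 2.53 (SE 0.31), and the proliferation marker *Mki67* by 1.47 (SE 0.28, adjusted p = 0.000389). At PND 10 replicate 3 was the highest pool for *Ccnb2*, *Cdk1*, *Spc25* and *Nuf2*. With it alone kept at PND 10, *Spc25* fell by 3.28 and *Nuf2* fell by 3.21, while the mitosis count stayed within 1.5 times under every setting tried.

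DNA replication genes went the same way, with 19 of 29 lower, 0 higher and a median of -1.14. *Rrm2* and *Tyms*, which make deoxynucleotides, fell by 2.40 (SE 0.36) and by 2.32 (SE 0.30), *Prim1*, a subunit of primase, by 2.26 (SE 0.30) and the replicative helicase subunit *Mcm6* by 1.43 (SE 0.19, adjusted p = 9.48e-06). *Cdc45*, which activates the helicase, fell by 1.24, a call that was lost without PND 10 replicate 3 (-0.96). Of 19 clustered histone genes, which are transcribed mainly in S phase, 13 fell and 0 rose. *H2ac4* was at 8.62, 8.79 and 9.71 at PND 10 and at 5.89, 5.78 and 6.00 at PND 42 and thus fell by 3.15 (SE 0.41). *H1f1*, a linker histone, fell by 2.92 (SE 0.33). Histone genes of a cluster are close in sequence, so single members may share probes.

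Promoters of the mitosis genes are shown because these genes fell as a block. Many genes of late cell cycle carry a cell cycle homology element read by the DREAM and MuvB complexes and, next to it, CCAAT boxes bound by NF-Y. Promoter windows (RefSeq, GRCm38.p6) of 250 bases before to 50 after the start were searched on both strands for TTTGAA and for CCAAT, which do not overlap. Of 34 mitosis genes, 28 matched a window. TTTGAA was in 22 of the 28 (78.6%), against 20.2% of 27025 genes with a window and 3 of 23 DNA replication genes (13%). CCAAT was in 21 of 28 mitosis windows (75%) and in 16 of 23 replication windows (69.6%), against 41.1% of all genes. Both motifs were in 19 of the 28 (67.9%), against 8.97% of all genes. The stretches below are from 4 of these genes, read on the strand of the gene, with matches on either strand in capitals (ATTGG and TTCAAA are CCAAT and TTTGAA on the opposite strand):
*Prc1*, chr7:80294402-80294463, plus strand: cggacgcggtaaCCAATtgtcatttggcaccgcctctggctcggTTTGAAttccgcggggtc
*Cdk1*, chr10:69352913-69353004, minus strand: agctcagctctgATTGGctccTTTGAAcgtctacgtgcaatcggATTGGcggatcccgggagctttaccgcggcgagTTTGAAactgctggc
*Top2a*, chr11:99024195-99024350, minus strand: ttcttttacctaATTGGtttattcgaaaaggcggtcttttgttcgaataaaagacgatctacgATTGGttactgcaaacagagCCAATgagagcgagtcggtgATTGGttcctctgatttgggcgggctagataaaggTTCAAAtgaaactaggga
*Ect2*, chr3:27153861-27154004, minus strand: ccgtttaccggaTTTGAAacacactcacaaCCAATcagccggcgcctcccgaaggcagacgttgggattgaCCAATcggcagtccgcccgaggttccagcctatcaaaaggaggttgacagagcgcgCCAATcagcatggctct
Each of the 4 stretches begins at most 161 bases before the start of its gene. The choice fixed this, as only matches a short way before the start were printed. The 4 genes had the largest falls among those that passed. *Ccnb2*, *Spc25* and *Cenpa*, which hold both motifs in their windows, did not pass. *Cdk1* holds TTTGAA and ATTGG in a repeated order. *Prc1* and *Ect2*, which build the cleavage furrow, fell by 2.58 (SE 0.30) and by 2.04 (SE 0.28), and *Top2a*, which untangles chromosomes, by 2.23 (SE 0.33). A match is a description of the letters and not of a bound site.

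Of 21 imprinted genes of fetal and early postnatal growth 9 fell, 1 rose and 11 were not called. *Peg3* was at 6.69, 7.28 and 6.99 at PND 10 and at 4.66, 4.73 and 5.24 at PND 42 and thus fell by 2.11 (SE 0.22, adjusted p = 6.11e-07). *Igf2*, a fetal growth factor, fell by 1.38 (SE 0.19), *Dlk1* by 2.00 (SE 0.44) and the adaptor *Grb10* by 1.26 (SE 0.10). *Cdkn1c*, an inhibitor of the cell cycle, fell by 1.04 (SE 0.16). The member that rose was the proteoglycan gene *Dcn*, from 8.59, 8.10 and 8.23 to 10.13, 10.07 and 10.27, and it is also a marker of matrix fibroblasts.

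Genes of the extracellular matrix moved in both directions, and most were not called. Of 19 elastic fibre genes 4 fell, 2 rose and 13 were not called. *Eln*, which encodes elastin, was at 9.97, 10.45 and 10.12 and then at 7.94, 8.82 and 9.14 and thus fell by 1.54 (SE 0.23, adjusted p = 2.73e-05), and the microfibril genes *Mfap2* and *Mfap4* fell by 1.27 (SE 0.13) and by 1.29 (SE 0.15). *Efemp1*, a fibulin, rose from 7.61, 7.61 and 7.5 to 9.68, 9.96 and 9.72, and *Ltbp4*, which tethers latent TGF-β and assists elastic fibre assembly, rose by 1.26 (SE 0.10). Among 33 matricellular protein and proteoglycan genes 9 fell, 4 rose and 20 were not called. *Tnc*, tenascin C, was at 7.93, 8.51 and 8.33 at PND 10 and at 4.78, 4.89 and 5.06 at PND 42, and *Vcan*, the large proteoglycan versican, fell by 2.77 (SE 0.27). *Prelp*, *Dcn*, *Tnxb* and *Ogn* rose by 1.16 to 2.05. None of 32 collagen genes was called in either direction (0 higher, 0 lower), against 4.98% of all genes. The arrays of the 2 ages did not overlap for 4 of the 32 in the higher direction and 5 in the lower, against 14.9% and 23% of all genes.

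Genes of myofibroblasts, smooth muscle and pericytes fell in 6 of 27 cases. *Actg2*, a smooth muscle actin, fell by 2.13 (SE 0.32), *Tagln* by 1.78 (SE 0.23), the pericyte marker *Rgs5* by 2.29 (SE 0.17) and *Wnt5a* by 1.69 (SE 0.34), and *Acta2*, the actin of septal myofibroblasts, by 1.12 (SE 0.18). *Pdgfra*, the receptor that marks alveolar fibroblasts, was the member that rose, from 7.24, 7.98 and 7.44 to 9.59, 9.51 and 9.86 (2.10, SE 0.24, adjusted p = 1.56e-06). Lipofibroblast and matrix fibroblast genes were split, with 6 of 23 higher and 4 lower. *Tcf21* and *Meox2*, transcription factors of lung mesenchyme, fell by 1.60 (SE 0.11) and by 2.58 (SE 0.31), and *Wnt2* by 2.16 (SE 0.24), whereas *Gsn*, an actin-severing protein, rose by 1.89 (SE 0.14). Of 53 genes for Hedgehog, FGF, WNT and BMP signals 5 fell and 3 rose, while 3.32% of all genes fell and 1.66% rose. The antagonists *Chrdl1* and *Sfrp1* rose by 1.53 (SE 0.10) and by 1.24 (SE 0.23) and the growth factor *Fgf1* by 1.31 (SE 0.16). The lower count of that list was 7 without PND 10 replicate 1.

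**Figure D3:**
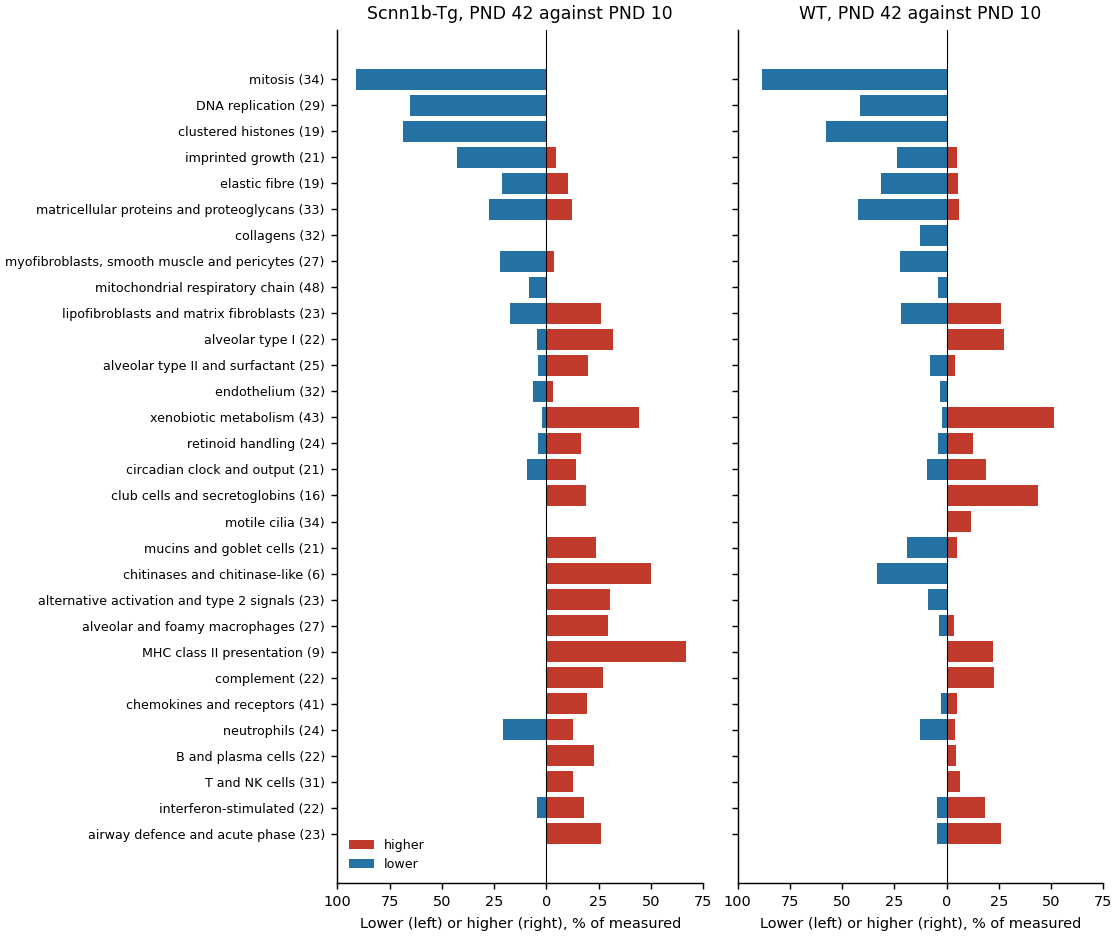
Share of the measured genes of each list (number measured in parentheses) that was called lower (blue, to the left) or higher (red, to the right) from PND 10 to PND 42, in *Scnn1b*-Tg on the left and in WT on the right. Mitosis genes fell in both genotypes (31 and 30 of 34), and goblet, chitinase and type 2 lists hold rises in *Scnn1b*-Tg and falls in WT.

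A few genes of airway mucus and of the chitinase family rose steeply. Of 21 goblet cell genes 5 rose, 0 fell and 16 were not called (median 0.27), and of 6 chitinase-family genes 3 rose and 0 fell. *Clca1*, a secreted goblet cell protein, was at 7.62, 8.15 and 7.31 at PND 10 and at 11.22, 10.76 and 11.35 at PND 42, a 10.7-fold rise (3.42, SE 0.22, adjusted p = 5.46e-10). *Slc26a4*, the anion exchanger pendrin, went from 4.93, 4.74 and 5.07 to 7.10, 8.14 and 7.04. No PND 10 pool reached a PND 42 pool for either gene. *Muc5b*, a gel-forming mucin, rose by 1.98 (SE 0.36), with 8.54, 8.95 and 10.07 at PND 42. *Muc5ac*, the gel-forming mucin of goblet cells, was at 5.20, 5.01 and 4.95 and then at 6.05, 5.59 and 6.51, a change of 1.00 (SE 0.20, adjusted p = 0.00068) that lies just under 2-fold and was not called. *Gp2*, a surface glycoprotein that serves as a receptor on M cells, rose by 2.33 (SE 0.35), and by 2.94 without PND 10 replicate 1, where it stood at 6.29 against 4.02 and 4.95. *Pigr*, which carries IgA and IgM across the epithelium, rose by 2.03 (SE 0.25).

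The chitinase-like proteins are secreted by macrophages and epithelium and bind chitin without cutting it. *Chil3* was at 10.07, 9.25 and 9.66 at PND 10 and at 12.93, 13.78 and 13.28 at PND 42, a 12.7-fold rise (adjusted p = 3.83e-07). *Chil4* rose from 7.22, 6.34 and 6.58 to 10.27, 10.13 and 9.63 (9.84-fold). The probes of these near-identical genes may share signal. *Chil1* rose by 1.07 (SE 0.31, adjusted p = 0.0106), and without PND 42 replicate 2 its change of 0.90 was not called. *Chia1*, which does cut chitin, was at 8.90, 8.56 and 8.44 and then at 9.59, 9.80 and 9.19, a change of 0.89 that was not called.

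Genes of alternatively activated macrophages and type 2 signals followed, with 7 of 23 higher and 0 lower. *Mgl2*, a lectin of macrophages and dendritic cells, was at 4.0, 4.56 and 4.41 and then at 6.68, 7.48 and 7.16, a rise of 2.78 (SE 0.17, adjusted p = 3.62e-10). *Ch25h*, which makes 25-hydroxycholesterol, rose from 4.94, 4.79 and 4.58 to 6.91, 8.03 and 6.81. The mannose receptor *Mrc1* rose by 1.77 (SE 0.21), *Arg1*, arginase, by 1.35 (SE 0.42), the eosinophil attractant *Ccl11* by 1.93 (SE 0.39) and *Ccl17*, a ligand of the T cell receptor CCR4, by 1.12 (SE 0.29, adjusted p = 0.00517). *Retnla*, a secreted marker of alternative activation, was already at 9.96, 10.54 and 10.58 at PND 10 and was at 11.26, 11.27 and 10.84 at PND 42, a change of 0.77 (SE 0.42, adjusted p = 0.18) that was not called. The type 2 cytokine transcripts themselves changed little: 0.09 for *Il4*, -0.21 for *Il5* and 0.27 for *Il13*, with none called.

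IL-4 and IL-13 signal through STAT6, which can bind TTC and GAA spaced by 4 bases. Whether STAT6 acts on the listed genes in these lungs was not tested. The promoter windows were searched on both strands for TTCNNNNGAA, which was in 5 of 16 windows of the type 2 list (31.2%: *Retnla*, *Ccl17*, *Il4*, *Il33* and *Tbxas1*), in 0 of 6 chitinase windows and in 0 of 12 goblet windows, against 8.01% of all genes. The match is shown for *Ccl17*, which rose, and for *Retnla*, whose change differed between the genotypes, with the motif in capitals (RefSeq, GRCm38.p6), and the absence of the letters elsewhere says nothing of the factor:
*Retnla*, chr16:48842452-48842485, plus strand: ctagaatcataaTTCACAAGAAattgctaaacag
*Ccl17*, chr8:94810287-94810320, plus strand: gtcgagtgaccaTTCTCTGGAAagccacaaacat
These stretches begin 157 bases before the start of *Retnla* and 166 before that of *Ccl17*. Of the 5 holders in the type 2 list, *Ccl17* and *Tbxas1* were called higher and *Retnla*, *Il4* and *Il33* were not called. *Mgl2*, *Ch25h* and *Mrc1*, which rose by 2.78, 2.48 and 1.77, have windows without the motif. The difference of *Retnla* between the genotypes kept its call in 2 of 12 fits that left out 1 array.

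Part of the macrophage list also rose. Of 27 genes of alveolar and foamy macrophages 8 rose and 0 fell, and the summed linear level of the list was 8720 to 9780 at PND 10 and 14800 to 21700 at PND 42, against 7540 to 9090 in WT at PND 42. *Tm4sf19* went from 3.92, 3.94 and 3.87 to 5.76, 6.37 and 5.44, and *Itgax*, the integrin CD11c of alveolar macrophages, from 7.21, 6.85 and 7.0 to 8.18, 9.45 and 8.69. *Gpnmb*, a marker of lipid-laden macrophages, rose by 1.22 (SE 0.38) and the scavenger receptor *Cd36* by 1.12 (SE 0.17), with *Cd36* at 1.00 and not called without PND 10 replicate 1. *Mmp12*, macrophage elastase, was at 8.41, 7.65 and 8.37 and then at 9.54, 10.05 and 9.61, a rise of 1.59 (SE 0.28, adjusted p = 0.000151). Of 13 lysosomal cathepsin genes 2 rose: *Ctsk*, a collagen-degrading cathepsin, from 8.26, 7.75 and 7.82 to 9.38, 9.52 and 8.87, and *Ctsd* by 1.14 (SE 0.14), which was 0.98 and not called without PND 42 replicate 2. *Ptprc*, the pan-leukocyte marker CD45, rose by 1.40 (SE 0.18), and the part of leukocyte number in these rises was not tested.

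Neutrophil genes moved in both directions, with 3 of 24 higher and 5 lower. The calprotectin genes *S100a8* and *S100a9* fell by 1.54 (SE 0.47) and by 1.85 (SE 0.57). *S100a9* was at 7.86, 7.36 and 7.77 at PND 10 and at 5.46, 7.0 and 5.0 at PND 42, where replicate 2 lay near the PND 10 pools. *Clec4e*, a receptor for mycobacterial glycolipid, fell by 2.04 (SE 0.56), and the cystatins *Stfa2* and *Stfa3* by 2.17 (SE 0.46) and by 2.14 (SE 0.36). *Cxcr1*, a receptor for neutrophil-attracting chemokines, rose from 3.95, 3.82 and 3.89 to 5.42, 6.10 and 4.71, the integrin *Itgb2* rose by 1.28 (SE 0.23), and *Ltf*, lactoferrin of neutrophil granules and glands, by 1.60 (SE 0.41), a call lost without PND 10 replicate 2 (1.14, adjusted p = 0.0505). The summed level of the list was 3850 to 4580 at PND 10 and 4310 to 7130 at PND 42. The lower count ranged from 3 to 7 when single arrays were left out. The acute cytokines *Il1b* (-0.94, SE 0.62), *Tnf* (-0.28, SE 0.18) and *Il6* (-0.13, SE 0.25) and the neutrophil attractant *Cxcl5* (-1.51, SE 0.67) were not called. *Tnfsf13b* (BAFF), a survival factor of B cells, was the only called gene of 21 innate cytokine genes, with 4.89, 4.73 and 4.61 at PND 10 and 7.25, 7.23 and 6.96 at PND 42. Over all genes 4.98% were called, so this count does not set the list apart.

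Most genes of MHC class II presentation rose, and a minority of lymphocyte genes did. Of 9 genes of MHC class II presentation 6 rose, with a median of 1.46. *Cd74*, the invariant chain, was at 9.24, 9.59 and 9.60 and then at 11.26, 11.41 and 11.18, a rise of 1.80 (SE 0.14, adjusted p = 1.75e-08), and *H2-Ab1* and *H2-Aa*, chains of the class II molecule I-A, rose by 1.65 (SE 0.20) and by 1.46 (SE 0.19). *H2-Oa*, which tempers peptide loading, rose by 1.02 and lay just under 2-fold without PND 10 replicate 3 (0.97) or PND 42 replicate 1 (0.96). Of 13 genes of MHC class I presentation 2 rose and 11 were not called. Of 22 B cell and plasma cell genes 5 rose. *Igha*, the constant region of IgA, went from 4.64, 4.72 and 4.62 to 7.0, 6.64 and 7.06, a rise of 2.24 (SE 0.13, adjusted p = 3.25e-10). *Jchain*, which joins IgA into dimers, was at 7.36 in PND 10 replicate 1 against 4.38 and 4.34, and of the other plasma cell genes an immunoglobulin κ variable gene (8.06, against 5.37 and 4.67) and *Mzb1* (6.18, against 4.36 and 4.03) were high in that pool while *Igha* was not. The count of B cell genes was 2 without PND 42 replicate 2, 3 without PND 10 replicate 3 and 8 without PND 42 replicate 3. *Fcer2a*, the IgE receptor CD23, rose by 1.22, and by 0.82 without PND 42 replicate 2. Of 31 T and NK cell genes 4 rose, among them *Ccl5* by 1.72 (SE 0.27), *Cd2* by 1.41 (SE 0.17) and *Gzma*, a granule protease, by 1.29 (SE 0.23).

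*Rnase2a* (*Ear11*), a ribonuclease of the eosinophil-associated family that macrophages also make, was the only called gene of 19 eosinophil and mast cell genes. That count is near the 4.98% of all genes called and does not set the list apart. *Rnase2a* rose from 4.09, 3.72 and 3.75 to 6.06, 6.77 and 7.17 (2.81, SE 0.21, adjusted p = 5.05e-09), while *Epx*, eosinophil peroxidase, changed by 0.23 (SE 0.15, adjusted p = 0.292). Of 22 complement genes 5 rose in WT and 6 in *Scnn1b*-Tg. *C4b* went from 5.71, 5.56 and 5.61 to 8.77, 9.64 and 9.58 (13-fold), *C7* and *C2* rose by 2.07 (SE 0.30) and by 1.82 (SE 0.17), and *Hc*, complement C5, by 1.39 (SE 0.19). *Serping1*, the C1 inhibitor, rose by 1.08, and by 0.94 without PND 10 replicate 1. Of 41 chemokine and receptor genes 8 rose and 0 fell, with *Cxcl14* the largest at 2.69 (SE 0.21), and *Ccl19*, which draws lymphocytes into lymphoid tissue, rose by 1.49 (SE 0.22). Of 22 interferon-stimulated genes 4 rose and 1 fell in each genotype, and the higher count in *Scnn1b*-Tg was 2 without PND 42 replicate 2. *Ifit3* rose by 2.07 (SE 0.34) and *Oasl2* by 1.40 (SE 0.23), and *Rsad2* fell by 1.00.

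Of 23 airway defence genes 6 rose and 1 fell in WT, 6 rose in *Scnn1b*-Tg, and none had a called difference between the genotypes. *Bpifa1* (SPLUNC1), a secreted protein of the upper airway that also restrains the sodium channel, was at 6.2, 5.15 and 5.69 and then at 8.31, 7.55 and 9.41, a rise of 2.74 (SE 0.32, adjusted p = 2.13e-06), and *Bpifb1* rose by 1.57 (SE 0.35). The protease inhibitor *Serpina3n* went from 6.58, 7.10 and 6.53 to 9.20, 9.88 and 9.24. *Scnn1a*, the α subunit of the sodium channel, rose by 1.05 (SE 0.23), just past 2-fold, and was at 0.99 without PND 10 replicate 3 and 0.97 without PND 42 replicate 3. *Spink5*, a protease inhibitor of stratified epithelium, fell from 7.55, 6.56 and 6.91 to 5.06, 5.14 and 5.23. Of 16 club cell genes 3 rose: *Cyp2f2*, a lung cytochrome P450, by 1.76 (SE 0.29), *Aldh1a1* by 1.39 (SE 0.26) and *Scgb1a1* by 1.06 (SE 0.27, adjusted p = 0.00452). *Scgb1a1* was lowest in PND 10 replicate 1 (12.19, against 13.04 and 13.23), as was *Sftpc* (12.39, against 14.03 and 13.82), and without that pool its change was 0.75 (adjusted p = 0.0435) and not called. None of 34 motile cilia genes was called (0 higher, 0 lower), with a median of -0.02 that was 0.01 with quantile normalization repeated. *Dnah5*, an outer arm dynein, changed by 0.91 (SE 0.21) and *Lrrc23*, a radial spoke protein, by -0.96 (SE 0.24). In WT 4 of the 34 rose (median 0.44), and none of the 34 had a called difference between the genotypes. None of 17 basal and squamous genes was called in *Scnn1b*-Tg (0 higher, 0 lower), and their summed level there was 1170 in PND 10 replicate 1 and 467 to 561 in the other pools. Over all genes 4.98% were called, so neither count sets its list apart.

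Xenobiotic metabolism had the largest number of rises of any list, 19 of 43 genes with 1 lower and a median of 0.83. By share and by median it stood below MHC class II presentation (6 of 9, median 1.46) and the chitinase family (3 of 6, median 0.98). *Inmt*, which methylates amines, went from 9.79, 10.15 and 8.96 to 13.25, 13.31 and 13.32 (12.7-fold), and *Cyp2b10*, a cytochrome P450 of alveolar type I cells and liver, from 7.10, 6.95 and 6.75 to 9.89, 9.82 and 10.16. All PND 42 pools of *Inmt* lay close together and far above those of PND 10. Aldehyde oxidase *Aox3* rose by 2.33 (SE 0.23), *Cyp1a1*, the classical target of the aryl hydrocarbon receptor, by 2.31 (SE 0.25), *Fmo2*, the lung flavin monooxygenase, by 2.16 (SE 0.24), *Gsta3* by 2.18 (SE 0.24) and epoxide hydrolase *Ephx1* by 1.49 (SE 0.12). *Adh1*, an alcohol dehydrogenase, fell by 1.06. Of 24 retinoid genes 4 rose and 1 fell: besides *Lrat*, *Rbp4*, the plasma carrier of retinol, rose by 1.74 (SE 0.22) and *Aldh1a2*, which makes retinoic acid, by 1.65 (SE 0.29), and *Crabp1*, which binds retinoic acid in the cell, fell by 2.19 (SE 0.18).

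The circadian clock genes *Nr1d1* and *Dbp* rose. *Nr1d1* (REV-ERBα), which represses *Arntl*, was at 5.63, 5.97 and 5.69 at PND 10 and at 9.59, 9.37 and 9.50 at PND 42, a 13.3-fold rise (adjusted p = 4.77e-10), and *Dbp*, an output factor of the clock, went from 6.13, 6.00 and 5.86 to 8.35, 7.78 and 8.01. *Bhlhe41* rose by 1.41 (SE 0.22). *Nfil3*, a repressor at *Dbp* target sites, fell by 1.14 (SE 0.26), and *Arntl* (BMAL1) changed by -0.97 and was not called. *Cry1* fell by 1.00 (SE 0.16), just past 2-fold, and was not called without PND 10 replicate 3 (-0.89) or PND 42 replicate 2 (-0.90). *Clock* (0.25, SE 0.20) and *Per2* (0.37, SE 0.19) were not called, so that 3 of 21 clock genes rose and 2 fell, while with quantile normalization repeated 8 rose and 1 fell. All mice were killed at the same hour of the day. CLOCK and BMAL1 bind the E-box CACGTG, a palindrome, which was in 5 of 18 clock windows (27.8%: *Per1*, *Cry1*, *Tef*, *Ciart* and *Bhlhe41*), against 8.09% of all genes. The match is shown for a gene that rose and a gene that fell, with the E-box in capitals (RefSeq, GRCm38.p6):
*Bhlhe41*, chr6:145865556-145865585, minus strand: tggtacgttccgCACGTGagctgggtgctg
*Cry1*, chr10:85185097-85185126, minus strand: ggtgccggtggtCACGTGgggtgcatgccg
The same letters thus lay before genes that moved in opposite directions. The other holders, *Per1*, *Tef* and *Ciart*, were not called. *Nr1d1* and *Dbp*, the largest rises of the list, have windows without CACGTG.

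Alveolar type I genes rose in 7 of 22 cases with 1 lower, among them *Akap5* by 1.61 (SE 0.24), *Ahnak* by 1.47 (SE 0.17) and the chloride channel protein *Clic5* by 1.19 (SE 0.15), and *Igfbp2* fell by 1.12. The type I marker *Ager* (RAGE) changed by 0.65 (SE 0.14, adjusted p = 0.00111), under 2-fold. Of 25 type II and surfactant genes 5 rose and 1 fell. *Scd1*, which desaturates fatty acids, went from 9.21, 9.53 and 9.55 to 11.54, 11.64 and 11.12, and the phosphate transporter *Slc34a2* rose by 1.11 (SE 0.20), or by 0.93 and not called without PND 10 replicate 1. *Slc27a6* was the member that fell, from 8.92, 9.08 and 9.64 to 5.41, 5.42 and 5.67. The fatty acid synthesis enzymes *Fasn* and *Acaca* rose by 1.25 (SE 0.23) and by 1.20 (SE 0.16), while *Mvk* of the sterol pathway changed by -0.85 (SE 0.15) and was not called. Of 32 endothelial genes 1 rose, *Vwf* by 1.25 (SE 0.22), and 2 fell, *Aplnr*, the apelin receptor, by 1.54 (SE 0.23) and *Fibin* by 1.09. Over all genes 1.66% rose and 3.32% fell. *Agt*, angiotensinogen, fell from 7.61, 8.34 and 7.99 to 4.68, 4.58 and 4.72 (adjusted p = 5.9e-11), and *Ace* changed by 0.78 (SE 0.17) and was not called. Of 48 respiratory chain genes 4 fell and 0 rose, with a median of -0.67 (-0.50 and 1 lower with quantile normalization repeated, -0.73 and 7 lower with array medians subtracted). *Ndufb8*, a subunit of complex I, fell by 1.34 (SE 0.16), and 39 of the 48 had no overlap between the ages in the lower direction, against 23% of all genes.

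Several lists mark tissues other than lung. Of 20 striated muscle and heart genes 8 fell, and 1 fell with only PND 10 replicate 3 kept at that age. *Ckm*, muscle creatine kinase, was at 7.99, 7.32 and 5.72 at PND 10 and at 4.98, 4.93 and 4.96 at PND 42, and with replicate 3 alone its change of -2.06 became -0.77 (adjusted p = 0.0905). *Acta1* fell by 2.57 with all pools and by 0.60 (adjusted p = 0.541) with replicate 3 alone. The summed level of the list was 4360, 3450 and 2440 at PND 10 and 1350 to 2170 at PND 42. *Myl7*, an atrial light chain that also occurs in the muscle sleeve of pulmonary veins, was less uneven, at 9.80, 9.67 and 9.30 and then at 7.61, 8.34 and 8.02. Of 17 adipose genes 6 rose and 1 fell (*Nnat*, also in the imprinted list, by -1.85), with a summed level of 1300 to 1440 at PND 10 and 3270 to 4470 at PND 42 (2240 to 3130 in WT). *Car3*, carbonic anhydrase of fat and muscle, went from 6.13, 5.52 and 4.68 to 7.76, 8.97 and 8.57, and *Adipoq*, adiponectin, from 3.99, 4.09 and 3.82 to 4.88, 5.86 and 4.96, while the brown fat marker *Ucp1* was at 3.38 to 3.95 on all 6 arrays. The adipose count was 3 without PND 42 replicate 2. Of 13 erythroid genes 3 fell and 1 rose, with *Alas2*, the haem synthesis enzyme of red cells, down by 1.60 (SE 0.28) and a summed level of 1820 to 2320 at PND 10 and 777 to 989 at PND 42. The part of fat, muscle and blood in the changes of other genes was not tested.

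Pools of PND 42 also differed in several multicopy, small RNA and uncharacterized genes, picked in part for their spread. *Srsy*, a multicopy gene of the Y chromosome, was at 10.49, 8.47 and 5.34 at PND 42 and at 5.25, 4.87 and 4.68 at PND 10, and its rise of 3.17 (SE 0.70, adjusted p = 0.00155) was 1.97 without PND 42 replicate 1 and 4.54 without replicate 3. *Mir680-1* and *Mir680-2* followed the same order of pools, at 8.71, 5.99 and 4.02 and at 9.68, 7.67 and 5.45, and rose by 2.61 (SE 0.69) and by 3.11 (SE 0.57). For *Srsy* and these 2 genes the SE, pooled over all 8 groups, understates the spread among the PND 42 pools, and so does the adjusted p. Without PND 42 replicate 1 the change of *Mir680-1* was 1.37 (adjusted p = 0.054) and that of *Mir680-2* 2.08, and without replicate 3 they were 3.72 and 4.19. The uncharacterized genes *Gm7982* (8.62, 5.81 and 4.01) and *1700054O19Rik* (9.27, 7.95 and 6.05) had that order too. The ordering was the reverse for the small nucleolar RNA genes *Rnu3a* (4.52, 5.74 and 8.39) and *Snora23* (5.58, 7.46 and 8.97) and for the vault RNA *Vaultrc5* (6.91, 8.73 and 10.16). Of 300 microRNA genes 4 rose and 0 fell, while 1.66% of all genes rose, so this count does not set the list apart. The mature miR-680 is shown because the genes *Mir680-1*, *Mir680-2* and *Mir680-3*, which lie on chromosomes 6, X and 12, encode it alike, so that they share the seed (bases 2 to 8, in capitals; RefSeq, GRCm38.p6):
mmu-miR-680: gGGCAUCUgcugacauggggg
The array reads the transcript around this sequence and does not measure the mature form. Replicate 3 is the PND 42 array for which the labels list 1 animal where they list 2 for the others, and what this contributes was not tested.

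Most of the change from PND 10 to PND 42 also occurred in WT lungs, where 990 genes (4.97%) were called, 318 higher (1.59%) and 672 lower (3.37%), and 1208 probe sets (5.54%), 371 higher (1.7%) and 837 lower (3.84%). The lower share of probe sets in WT was 69.3%, and 50.3% with quantile normalization repeated (577 higher, 583 lower) and 51.4% over all probe sets. Of the genes that rose in *Scnn1b*-Tg, 183 of 331 (55.3%, and 57.5% of those in WT) also rose in WT, of those that fell 433 of 662 (65.4%, and 64.4% of those in WT) also fell, and 3 went opposite ways. The 2 comparisons share no arrays in their group means, but they share the spread estimated for each probe set over all 24 arrays. Mitosis genes fell in 30 of 34 cases in WT (median -1.53), and *Mest*, *Lrat* and *Nr1d1* changed by -3.82, 3.96 and 3.72 there, with differences between the genotypes of -0.002, -0.14 and 0.01 and SEs of 0.26, 0.25 and 0.33. In xenobiotic metabolism 22 of 43 genes rose in WT.

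The difference of the change between the genotypes was tested for every probe set, and 47 genes (0.236%) were called, 40 with a higher change in *Scnn1b*-Tg (0.201%) and 7 with a lower one (0.0351%). These were 49 probe sets (0.225%), 42 higher (0.193%) and 7 lower (0.0321%). With quantile normalization repeated 15 of 56 probe sets were lower (26.8%, against 14.3%). Among the genes with a higher change were 4 of 21 goblet genes, 3 of 6 chitinase-family genes and 6 of 23 type 2 genes. In the fits that left out 1 of 12 arrays, *Retnla* kept its call in 2, *Tbxas1* in 3, *Ccl24* in 4 and *Chia1* in 8. *Clca1* fell in WT from 10.53, 10.17 and 9.79 to 7.30, 6.72 and 7.18 while it rose in *Scnn1b*-Tg, a difference of 6.52 (SE 0.31, adjusted p = 1.85e-11). *Chil4* in WT went from 9.34, 8.93 and 7.32 to 5.51, 5.46 and 5.81 (difference 6.23, SE 0.45). *Retnla* fell by 2.02 in WT (difference 2.79, SE 0.59, adjusted p = 0.0441), and *Chil3*, which changed by 0.43 in WT, had a difference of 3.23 (SE 0.52, adjusted p = 0.00521). *Muc5ac* fell by 1.29 in WT and *Agr2*, which folds mucins and was outside the rule for named genes, by 1.22, with differences of 2.29 (SE 0.29) and 1.10 (SE 0.16, adjusted p = 0.00148). At PND 10 every *Scnn1b*-Tg array was below every WT array for *Clca1*, *Slc26a4* and *Muc5ac*, and at PND 42 every *Scnn1b*-Tg array was above. For *Slc26a4* the gap at PND 10 was narrow, with 5.07 in the highest *Scnn1b*-Tg pool and 5.08 in the lowest WT pool.

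**Figure D4:**
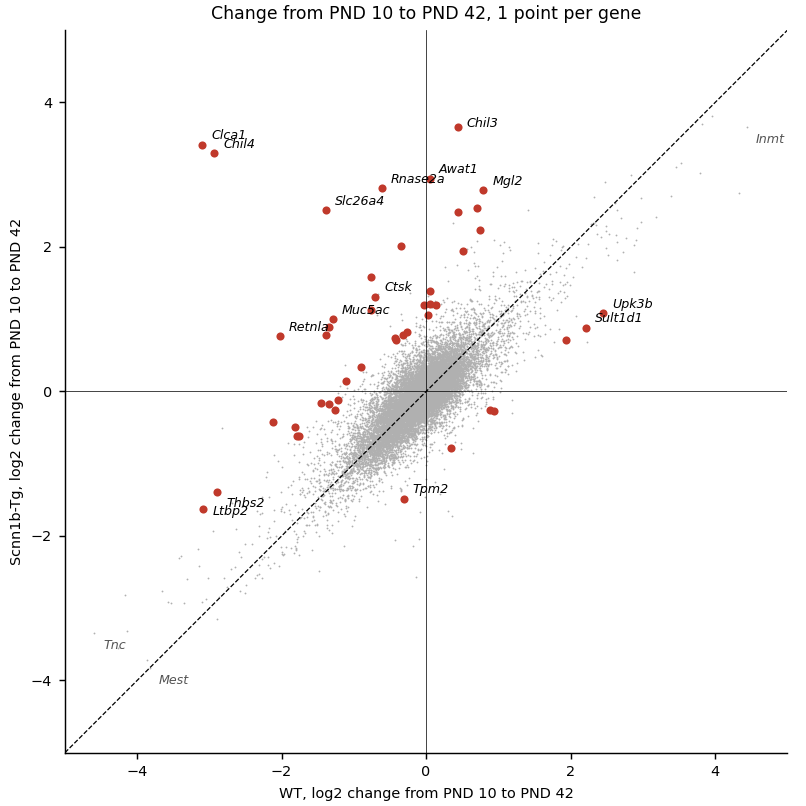
Log2 change from PND 10 to PND 42 in WT (x axis) and in *Scnn1b*-Tg (y axis), 1 point per gene, with the dashed line at equal change and the 47 genes whose difference between genotypes was called in red. *Clca1* (3.42 against -3.10) and *Chil4* (3.30 against -2.94) lie farthest from the line, and *Mest*, *Tnc* and *Inmt* moved the same way in both genotypes.

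Over the 4 ages, *Clca1* in *Scnn1b*-Tg had means of 4.17, 4.37, 7.69 and 11.11 at PND 0, 3, 10 and 42, and in WT of 4.05, 4.30, 10.16 and 7.07. *Chil4* and *Slc26a4* had the same outline, with a WT maximum at PND 10 and a *Scnn1b*-Tg maximum at PND 42. *Rnase2a* was between 3.27 and 3.85 in *Scnn1b*-Tg up to PND 10 and at 6.67 (SD 0.56) at PND 42. *Ctsk* took another course: in *Scnn1b*-Tg it was at 5.05, 6.59, 7.94 and 9.26 and was above WT at PND 10 already (6.69 in WT). *Mmp12* was likewise at 8.14 (SD 0.43) in *Scnn1b*-Tg and at 6.17 (SD 0.67) in WT at PND 10. These means are a description, and PND 0 and PND 3 were not tested against the later ages here.

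**Figure D5:**
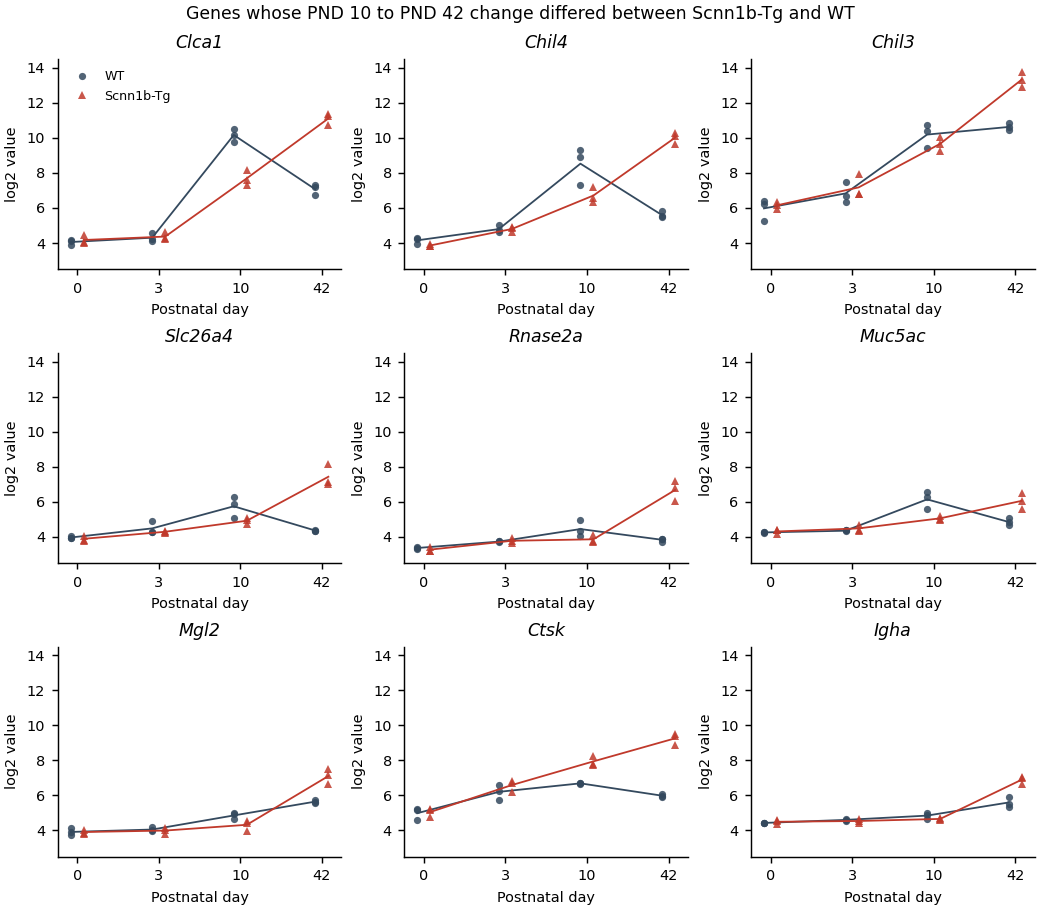
Log2 values of 9 genes at PND 0, 3, 10 and 42 in WT (circles) and *Scnn1b*-Tg (triangles), 1 point per array, with lines through the group means. *Clca1*, *Chil4*, *Slc26a4* and *Muc5ac* peak at PND 10 in WT and at PND 42 in *Scnn1b*-Tg, and *Igha* has group means of 4.43 to 4.85 before PND 42 in both genotypes.

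Other genes with a higher change in *Scnn1b*-Tg included some of macrophages and of matrix, besides *Igha*, *Hc*, *Acaca* and *Awat1*. The gluconeogenic enzyme *Fbp1* went from 4.27, 4.01 and 4.03 to 5.67, 6.62 and 6.03 (difference 2.35, SE 0.29, adjusted p = 0.000174), and *Mmp12*, *Ctsk*, *Mgl2*, *Ch25h* and *Tm4sf19* had differences of 1.44 to 2.36. *Thbs2*, thrombospondin 2, fell by 2.89 in WT and by 1.40 in *Scnn1b*-Tg (difference 1.5, SE 0.19, adjusted p = 0.000192). *Thbs2* was at 7.54, 7.41 and 7.28 in WT at PND 10 and at 5.79, 6.22 and 6.08 in *Scnn1b*-Tg, and at PND 42 the genotypes were near each other, at 4.51 to 4.53 and at 4.42 to 4.91. *Ltbp2* had the same pattern with a difference of 1.45 (SE 0.32, adjusted p = 0.0496), and *Fn1*, fibronectin, and *Col6a3*, which were outside the rule for named genes, had differences of 1.70 (SE 0.34) and 1.33 (SE 0.28). *Awat1*, a wax ester synthase of skin glands, was at 6.98, 8.02 and 5.05 in *Scnn1b*-Tg at PND 42 and at 3.5 to 3.93 in all other pools of both ages and genotypes. Its rise of 2.95 was 2.28 without PND 42 replicate 2 and 3.77 without replicate 3.

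Among the 7 genes with a lower change in *Scnn1b*-Tg were the cytochrome P450 *Cyp2s1*, the sulfotransferase *Sult1d1* and *Upk3b*, a uroplakin of mesothelium. *Cyp2s1* rose by 1.93 in WT, from 7.17, 7.24 and 7.38 to 9.37, 9.12 and 9.10, and changed by 0.71 in *Scnn1b*-Tg, from 8.23, 7.83 and 7.85 to 8.41, 8.93 and 8.69 (difference -1.22, SE 0.22, adjusted p = 0.0172). *Sult1d1* rose by 2.22 in WT and changed by 0.88 in *Scnn1b*-Tg (difference -1.33). *Cfap206*, a protein of motile cilia, was at 7.03, 6.42 and 6.51 in *Scnn1b*-Tg and at 5.70, 5.73 and 5.77 in WT at PND 10, and at 6.26 to 7.01 in both genotypes at PND 42. *Tekt1*, another cilium protein, had a difference of -0.97 (SE 0.16, adjusted p = 0.00608), just under 2-fold. Leaving out each of the 12 arrays in turn, 14 of 29 named genes kept the call of a difference in every fit (*Clca1*, *Chil4*, *Slc26a4*, *Rnase2a*, *Chil3*, *Mmp12*, *Fbp1*, *Muc5ac*, *Ch25h*, *Ctsk*, *Mgl2*, *Thbs2*, *Igha* and *Tm4sf19*), and 0 of the 7 lower ones did. With only *Scnn1b*-Tg PND 10 replicate 3 kept at that age, *Chil3* (adjusted p = 0.0762), *Ch25h* (adjusted p = 0.0786) and *Mmp12* (adjusted p = 0.137) lost it too.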

How the data were processed

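Left-lobe RNA was measured on 24 Mouse Gene ST arrays from Affymetrix, 3 in each of 8 groups. The deposited values are log2 expression per probe set, which the authors made by RMA (background and probe sequence adjustment, quantile normalization and median polish) in Partek (6.5 in the submitters' processing notes, while the methods name a later release); array medians were 4.79 to 5.0. Each sample was pooled RNA per the methods, which give more mice per pool than the labels list. Of 35556 probe sets, the 21789 annotated with 1 gene (19938 genes) were tested; 1621 with several genes and 12146 with none were left out, and a gene with several probe sets is given by its brightest. Group means were fitted to all 24 arrays (16 residual degrees of freedom) with limma 3.58.1 in R 4.3.3, with Benjamini-Hochberg adjustment of p over all tested probe sets of a contrast. The alternatives changed the samples fitted, variance moderation, array weights, replicate block, filter, fold threshold, probe sets and normalization, and left out each array in turn. The fit was tested on simulated data with the same spread in every group. That test does not cover the larger spread among the *Scnn1b*-Tg PND 42 pools. No depth or counting error applies to arrays, whose number limits the precision. Named genes were the 20 largest rises and 20 largest falls without overlap of arrays, the 15 largest differences between genotypes in each direction, up to 6 members of each list by lowest p, the 5 most variable called genes at PND 42, *Scnn1b*, *Ttr* and *Scgb1a1*, and genes the study names; other genes in the text are members of a list or were chosen after their values were seen. Members and lists were chosen with earlier results of these data known.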

Additional observations from a re-analysis of the deposited data

Results flagged for a closer look

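The change from PND 10 to PND 42 differed between *Scnn1b*-Tg and WT lungs, by the limma test of the difference itself with Benjamini-Hochberg adjustment, in 29 named genes. Of these 29, 14 kept the call in every fit that left out 1 array, and 0 of the genes with a lower change did. Values are the log2 change in *Scnn1b*-Tg minus that in WT. Among genes of mucus and goblet cells the difference was 6.52 for *Clca1*, 3.9 for *Slc26a4* and 2.29 for *Muc5ac*, and among chitinase-family genes it was 6.23 for *Chil4*, 3.23 for *Chil3* and 2.23 for *Chia1*. Genes of alternative activation and type 2 signals differed by 2.79 (*Retnla*), 2.17 (*Ccl24*), 2.04 (*Ch25h*), 1.99 (*Mgl2*) and 1.15 (*Tbxas1*), and the ribonuclease gene *Rnase2a* by 3.43. Macrophage and protease genes differed by 2.36 (*Mmp12*), 2.02 (*Ctsk*) and 1.44 (*Tm4sf19*). Differences of matrix genes were 1.5 for *Thbs2* and 1.45 for *Ltbp2*. Further genes with a higher change were *Awat1* (2.9), *Fbp1* (2.35), *Igha* (1.49), *Hc* (1.33) and *Acaca* (1.07). The change was lower in *Scnn1b*-Tg for *Upk3b* (-1.37), *Sult1d1* (-1.34), *Cyp2s1* (-1.22), *Cfap206* (-1.21), *Tpm2* (-1.18), *Anxa8* (-1.15) and *1700001L19Rik* (-1.12).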

How the results depend on the processing

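From PND 10 to PND 42 the count of called probe sets in *Scnn1b*-Tg was 1127, and 2131 over all probe sets, 6491 with no fold threshold, 3688 at 1.5-fold and 1082 to 1323 with single arrays left out; in WT it was 1208, and 2056, 6627, 3616 and 1111 to 1338. The count of differences between genotypes was 49, and 15 without variance moderation, 80 with the compared arrays only, 28 over all probe sets and 17 with only *Scnn1b*-Tg PND 10 replicate 3 kept at that age, an alternative chosen after seeing the data. It was 20 without WT PND 10 replicate 1, 21 without WT PND 10 replicate 2, 23 without WT PND 42 replicate 3, 24 without *Scnn1b*-Tg PND 42 replicate 2, 28 and 29 without *Scnn1b*-Tg PND 10 replicates 1 and 3, and 90 without *Scnn1b*-Tg PND 42 replicate 1. Pools of the same replicate number shared little between the ages (correlations of deviations -0.032, -0.039 and -0.16 in *Scnn1b*-Tg and 0.068 to 0.103 in WT). Between the genotypes the correlations were -0.115, -0.127 and 0.272 at PND 42 and 0.149, 0.042 and -0.032 at PND 10. Blocking on replicate number gave counts of 1130, 1210 and 55. Values that changed sign were not called: in *Scnn1b*-Tg *Dsg3* (-0.294 to 0.001 with single arrays left out, 0.015 with replicate 3 alone), *Krt13* (-1.934 to 0.068, and 0.018), *Tff2* (-0.098 to 0.724) and *Ttr* (-0.001 to 0.215); in WT *Acaca* (-0.008 with probe sets averaged), *Awat1* (-0.062 to 0.127), *Hc* (-0.148 to 0.174) and *Tbxas1* (-0.039 to 0.136); and the difference of *Scgb1a1* (-0.151 with quantile normalization repeated). The cause was not tested, beyond fewer or more probe sets and samples by construction. Among probe sets with a mean above 5 the median change in *Scnn1b*-Tg was -0.182, against -0.019 over all.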
